A study of Mus musculus with 6 samples.

Results

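This account describes insulin-like growth factor 1 (Igf1), its receptor (Igf1r) and the 7 IGF binding protein genes Igfbp1 to Igfbp7 in lungs of mouse embryos of stage E14.5, counted in days from conception. Members were chosen by gene symbol: a feature of the array counted only where its platform annotation gives a member as the single symbol. All 9 members were found, each on 1 feature, among 19946 genes compared. Whole lungs of 3 control embryos, which carry Shh-Cre, were compared with those of 3 mutant embryos, which carry Shh-Cre and floxed (loxP-flanked) alleles of Foxp1, Foxp2 and Foxp4. Shh-Cre is a Cre recombinase driven by the Shh gene, which is active in the endoderm that forms the lung epithelium, so the mesenchyme, vessels and blood cells in these samples are not its target. The genotype label of the mutants gives Foxp1 in 2 places and no Foxp2, and the series title, which has Foxp2, was followed. Both groups shared a mixed background of C57BL/6 and 129X1. The study asked what this forkhead subfamily does for the identity of lung endoderm.

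IGF1 is a secreted growth factor that acts through the receptor tyrosine kinase encoded by Igf1r. The receptor recruits insulin receptor substrate (IRS) adaptors and activates the PI3K and AKT cascade, which promotes growth and survival. Most IGF in tissue is held by binding proteins, which bind the ligand tightly, can keep it from the receptor or deliver it, and are cut by proteases that free it. In the embryonic lung the mesenchyme is the main known source of IGF ligands, and mice that lack Igf1 or Igf1r have underdeveloped lungs.

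The promoters of the members are shown first because the genes deleted in the mutants encode forkhead factors, which bind DNA. RefSeq (assembly GRCm38.p6) gave a window of 300 bases, 250 before to 50 after the start, for all 9 members and 10 starts, Igfbp2 having 2. The forkhead core letters TGTTTAC were in 0 of the 10 windows and in 3.65% of all 32851 windows of that length, read on both strands. The letters TGTTTAT were likewise in 0 of the 10 and in 4.6% of all windows. These searches say only that the letters are not in these windows. The bases before the start are printed for the 2 members that passed the test below, on the strand of the gene, with each CG dinucleotide in capitals (Igf1 at chr10:87860861-87861110, plus strand, and the upstream start of Igfbp2 at chr1:72824230-72824479, plus strand).
Igf1: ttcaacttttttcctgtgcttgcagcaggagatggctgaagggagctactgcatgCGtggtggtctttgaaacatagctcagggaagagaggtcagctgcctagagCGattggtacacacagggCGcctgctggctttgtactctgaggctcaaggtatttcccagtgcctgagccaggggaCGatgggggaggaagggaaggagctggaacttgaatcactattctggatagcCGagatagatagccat
Igfbp2: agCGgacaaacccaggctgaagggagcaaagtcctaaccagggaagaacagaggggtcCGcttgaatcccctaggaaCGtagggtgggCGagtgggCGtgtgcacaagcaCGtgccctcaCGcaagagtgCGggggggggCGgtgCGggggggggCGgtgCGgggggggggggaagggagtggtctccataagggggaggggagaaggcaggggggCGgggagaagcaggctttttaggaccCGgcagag
The Igf1 stretch holds 5 CG dinucleotides in 250 bases and the Igfbp2 stretch 14, with 52.8% and 67.2% G or C. Over the full windows the count ran from 6 in Igf1 to 48 in Igf1r among the members, against a median of 7 over all windows. The GC box letters GGGCGG, read on both strands, were in the windows of Igf1r, Igfbp2 and Igfbp7 and in 35.7% of all windows, and the TATA box letters TATAAA were in those of Igfbp4 and Igfbp6 and in 13.6% of all windows.

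Igfbp1 has the best known forkhead site of the family, the insulin response element, through which FOXO factors activate the gene in liver. Its letters were found from 108 to 91 bases before the start, and all 18 are in capitals in this stretch of 60 bases (chr11:7197658-7197717, plus strand).
Igfbp1: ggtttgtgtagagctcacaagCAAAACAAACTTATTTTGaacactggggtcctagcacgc
The pattern searched, CAAAACA and TATTTTG with 4 bases of any kind between them, on both strands, occurs in 1 of the 32851 windows, that of Igfbp1. It was written from the known Igfbp1 element, so this count describes the letters and tests nothing. The level of Igfbp1 in these lungs is given below with the other binding proteins.

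The values are log2 intensities that the authors computed by robust multi-array averaging (RMA, which corrects background, normalizes between arrays and summarises probes), and differences are mutant minus control from a limma fit over all 19946 genes, in which adjusted p is the Benjamini-Hochberg value over all of them and 0.05 the threshold. Array medians over all features lay close together, from 6.70 to 6.79, and the lowest correlation between 2 arrays over all genes was 0.988. Foxp2 (-0.95) and Foxp4 (-0.64) were lower in the mutants (adjusted p = 4.75e-05 and 0.00591), and Foxp1 (-0.31) did not pass (adjusted p = 0.0661). In each of the 3 genes the groups did not overlap. Of the markers of lung identity, Tbx4, Tbx5 and Wnt2 did not pass, and Nkx2-1 (-0.88) and Foxf1 (-0.38) were lower in the mutants, Nkx2-1 still reading 9.25 ± 0.24 (SD, n = 3). Control 3 and mutant 3 came from male embryos by Xist and Y-linked genes, and the other 4 from females. Nothing in the labels says whether the embryos came from separate litters. The p-values set the group difference against the spread between these samples and take the embryos as independent. Heart muscle genes differed among the mutants: the log2 of the summed signal of 12 such genes was 11.70 to 11.79 in controls, 12.94 in mutant 1, above them, and 10.65 and 10.59 in mutants 2 and 3, below them. Actc1, the brightest of the 12 in controls (mean 10.98, the next being Tnnt2 at 8.12), weighs most in this sum. It read 11.37, 8.70 and 8.61 in mutants 1, 2 and 3. The median of the 12 genes was 1.10 above the control mean in mutant 1, and at -0.18 and -0.20 in mutants 2 and 3.

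Of the 9 members, 2 (Igf1 and Igfbp2) were lower in mutant lungs, and 7 did not pass the threshold. That is 22.2% of the members, against 7.66% of all genes tested, of which 3.84% were higher and 3.83% lower. The groups did not overlap in 4 members, or 44.4%, against 25.9% of all genes. Mutants were below in 3 of them (Igf1, Igfbp2 and Igfbp6), as in 12.6% of all genes, and above in Igfbp3, as in 13.4%. The median difference of the 9 members was -0.08, against -0.01 over all genes, and their median size regardless of direction was 0.29, against 0.08. The members were chosen with earlier results of these data known, so these shares and medians describe the set and do not test it. The count of members called was 1 (Igfbp2) without control 1, control 2, control 3 or mutant 3, 3 without mutant 1 (with Igfbp3) and 5 without mutant 2 (with Igfbp3, Igfbp5 and Igfbp7). In the same order the count over all genes, 1528, became 876, 793, 774, 1232, 1484 and 1745. With these whole lungs, fewer cells of a type and less RNA per cell cannot be told apart.

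**Figure D1:**
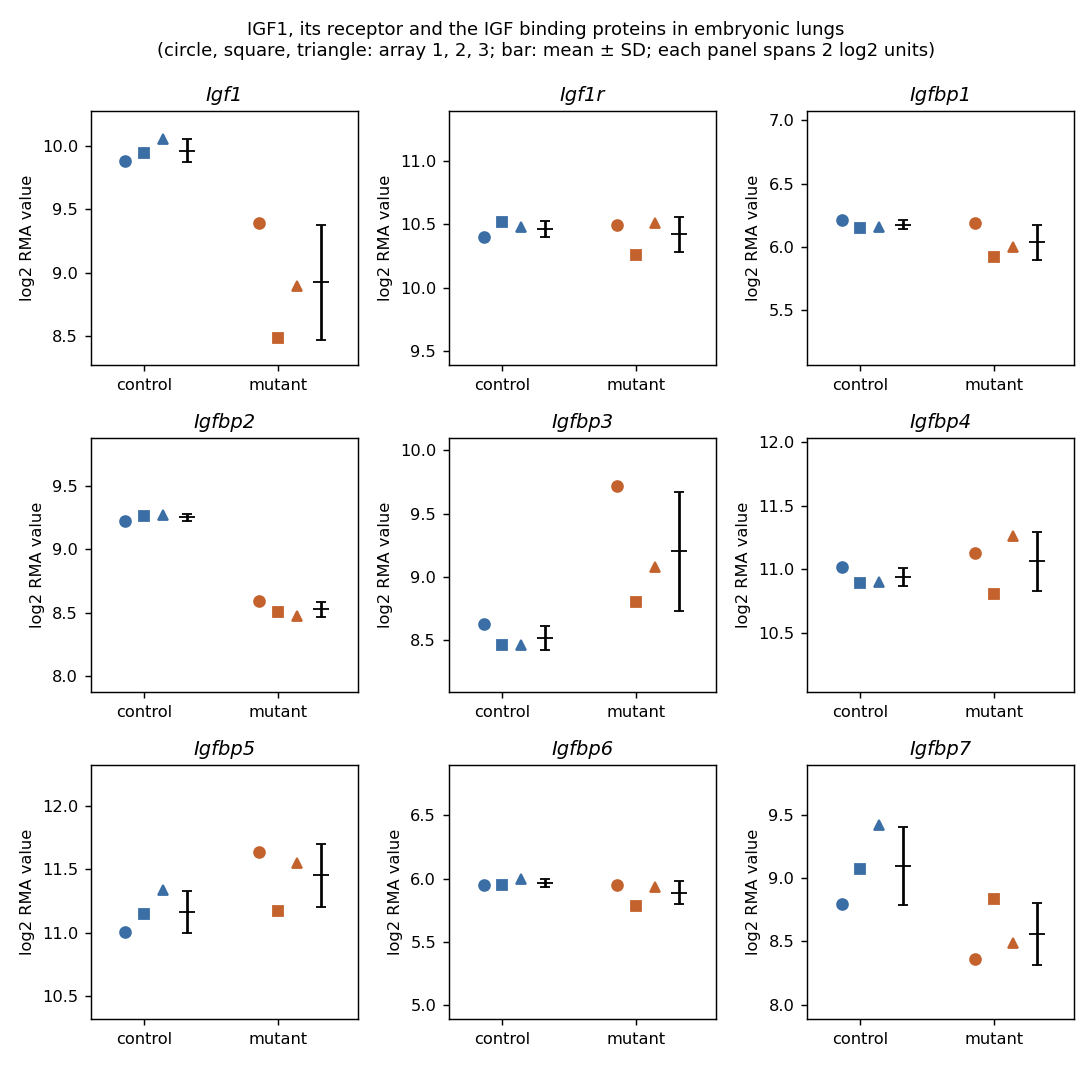
Log2 RMA value (vertical axis) of the 9 genes in 3 control (blue) and 3 mutant (orange) lungs, with circles, squares and triangles for arrays 1, 2 and 3, and the mean ± SD in black. Each panel spans the same range, and the groups are wide apart relative to their spread in Igfbp2, while the mutants scatter in Igf1 and Igfbp3.

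The ligand gene Igf1 (feature 10365559) had control values of 9.89, 9.95 and 10.06 and mutant values of 9.39, 8.49 and 8.89, each in the order of arrays 1 to 3, as for the genes that follow. All mutants were below all controls, and mutant 1 was the nearest to them. The difference was -1.04 ± 0.20 (SE, n = 3 per group), a 2.06-fold fall (adjusted p = 0.0166), the largest of the 9 members. Its 95% interval ran from -1.49 to -0.59. The controls varied by an SD of 0.09 and the mutants by 0.45, the latter wider than in 99.1% of all genes by rank. Igf1 kept its direction with any single array left out, at -1.27 to -0.82, but without control 1, control 2, control 3 or mutant 3 its adjusted p was 0.0592, 0.0636, 0.0775 and 0.0567. It was lowest, at 0.000938, without mutant 1.

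The receptor gene Igf1r (feature 10554094) had control values of 10.40, 10.52 and 10.48 and mutant values of 10.49, 10.26 and 10.51. The groups overlapped, with mutant 2 alone below the controls. The difference was -0.04 ± 0.08 (adjusted p = 0.833), and the 95% interval ran from -0.23 to 0.14. The sign was not stable, as it was 0.04 without mutant 2.

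Igfbp2, which encodes a binding protein abundant in fetal tissues, was the most uniform change among the members. Its feature (10347277) had control values of 9.22, 9.26 and 9.27 and mutant values of 8.60, 8.50 and 8.48. No value of one group came near the other. The difference was -0.73 ± 0.06 (SE, n = 3 per group) or 1.66-fold, with an adjusted p of 0.000277 and a 95% interval of -0.86 to -0.59. The SD was 0.03 in controls and 0.06 in mutants (the median gene had 0.06 and 0.10). With any array left out it stayed past the threshold, at -0.76 to -0.70 and an adjusted p of at most 0.00346.

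Igfbp3 encodes the main carrier of IGFs in blood, which also acts in tissues. It was the only member whose mutants all lay above the controls. It had control values of 8.63, 8.47 and 8.47 and mutant values of 9.72, 8.80 and 9.08. Mutant 1 was well above the others and mutant 2 close to the highest control. The difference of 0.68 ± 0.20 did not pass (adjusted p = 0.0942, 95% interval 0.21 to 1.15). The mutant SD of 0.47 ranked above that of 99.2% of all genes. Without mutant 1, the array with high heart muscle genes, the difference was 0.42 and passed (adjusted p = 0.0480), and without mutant 2 it was 0.88 (adjusted p = 0.0218). With a control left out, the adjusted p lay between 0.187 and 0.269.

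Igfbp7 encodes a more distant relative that binds IGFs weakly, binds insulin and lies in vessel walls. It had control values of 8.80, 9.07 and 9.42 and mutant values of 8.36, 8.83 and 8.48. Mutant 2 lay above control 1, and the groups overlapped there only. The difference of -0.54 ± 0.17 did not pass (adjusted p = 0.111, 95% interval -0.93 to -0.15), with a control SD of 0.31 that ranked above 99.4% of all genes. It passed without mutant 2, at -0.67 (adjusted p = 0.0481). Of 10 endothelial markers, 0 passed the limma threshold, against 7.66% of all genes, and 1 had an unadjusted p under 0.05, against 19.8% of all genes, so these few genes do not tell whether vessels differed. Their median difference was -0.08, and the lowest was that of Emcn, at -0.25 (adjusted p = 0.0934).

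Igfbp5, which encodes a binding protein of connective tissue and muscle, had control values of 11.01, 11.15 and 11.34 and mutant values of 11.63, 11.17 and 11.55. Mutant 2 lay within the controls and the other 2 above them. The difference was 0.29 ± 0.13 (adjusted p = 0.278, 95% interval -0.02 to 0.59), and without mutant 2 it was 0.43 and passed (adjusted p = 0.0408). Igfbp4, whose product mostly inhibits IGF action until it is cut by the protease PAPP-A, had control values of 11.02, 10.89 and 10.90 and mutant values of 11.12, 10.80 and 11.26. Its groups overlapped, and the difference was 0.13 ± 0.11 (adjusted p = 0.630, 95% interval -0.13 to 0.38). It was 0.26 without mutant 2 and 0.03 without mutant 3.

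Igfbp1 and Igfbp6 read low, and a low value can fall only a little on this scale. Igfbp1, the binding protein gene that insulin represses in liver, had control values of 6.22, 6.15 and 6.16 and mutant values of 6.19, 5.92 and 6.00. The difference was -0.14 ± 0.08 (adjusted p = 0.389, 95% interval -0.32 to 0.04), with mutant 1 inside the control range. It was -0.22 without mutant 1 and -0.08 without mutant 2. Igfbp6, which prefers IGF2 as its ligand, had control values of 5.95, 5.95 and 6.00 and mutant values of 5.95, 5.79 and 5.93. These mutants lay below the controls by little, at a difference of -0.08 ± 0.06 (adjusted p = 0.590, 95% interval -0.22 to 0.07), and at -0.03 without mutant 2. For scale, Xist read 5.51 and 5.77 in the 2 male lungs, where it is silent, and the median control mean over genes was 7.34. The other 7 members were above that median.

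**Figure D2:**
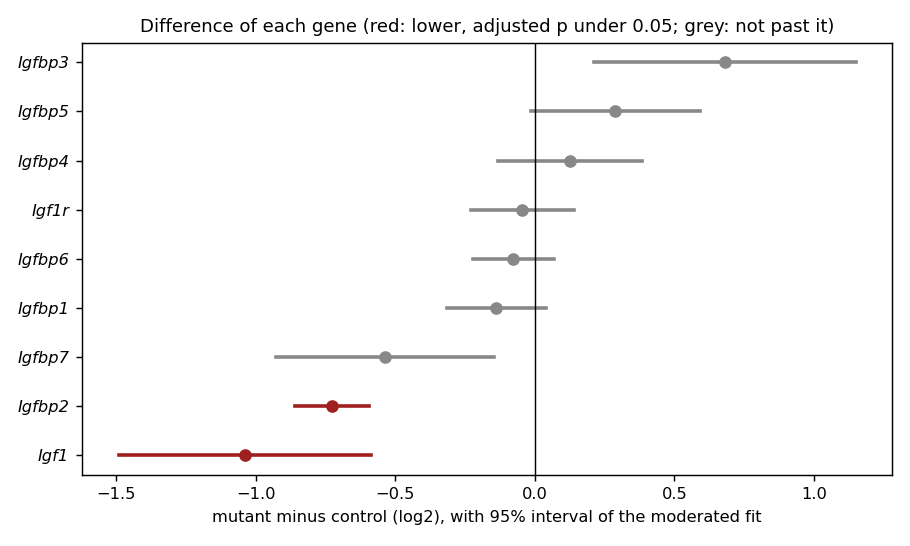
Difference, mutant minus control (horizontal axis, log2), of each of the 9 genes with its 95% interval from the moderated fit. Igf1 (-1.04) and Igfbp2 (-0.73), in red, passed the threshold, and Igfbp3 and Igfbp7, in grey, have intervals that do not reach 0 but adjusted p of 0.0942 and 0.111.

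The mutant arrays differed in a shared way across the members. Mutant 2 was the lowest of the mutants in 7 of the 9 members (all but Igfbp2 and Igfbp7) and mutant 1 the highest in 6. Over all genes, mutant 2 was the lowest in 43.3% and mutant 1 the highest in 33.8%. Members are not independent of each other, so this is a description of these 3 lungs.

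The binding protein genes include 2 pairs of neighbours in the genome, each with 0 annotated genes between them and transcribed toward each other: Igfbp2 with Igfbp5 on chromosome 1, and Igfbp1 with Igfbp3 on chromosome 11. Within an array, the log2 ratio of Igfbp2 to Igfbp5 had control values of -1.79, -1.89 and -2.06 and mutant values of -3.04, -2.67 and -3.07. All mutants were lower, by 1.01 on average. Most of this repeats the fall of Igfbp2 given above (-0.73), and the rest is the difference of Igfbp5 (0.29), which did not pass. The two-sided exact permutation p was 0.1, the smallest that 3 against 3 arrays can give, and also 0.1 after adjustment over the 2 pairs, which were chosen after their values were seen. Igfbp1 read low and differed little (-0.14), so its ratio to Igfbp3 would likewise mostly repeat the value of Igfbp3 and is not given. Only the change of such a ratio can be read, since the levels of different features are not comparable.

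The rest of the IGF system was read from 5 lists of 53 entries, 48 of them measured. Of these 48 genes, 2 rose, 3 fell and 43 missed the threshold, and their median difference was 0.04. That is 10.4% of them, against 7.66% and a median of -0.01 over all genes, and the 5 entries not measured are not analysed here. Without control 1, control 2 or control 3 the count of 5 became 3, 2 and 2, and without mutant 2 it became 8.

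Of the other ligands and receptors, 0 of 5 measured genes passed in limma and 0 had an unadjusted p under 0.05, against 19.8% of all genes. Their differences ran from -0.12 to 0.12. Igf2, the fetal ligand, had control values of 12.46, 12.44 and 12.49 and mutant values of 12.44, 12.23 and 12.35, a difference of -0.12 ± 0.07 (adjusted p = 0.372, 95% interval -0.28 to 0.03), which was -0.07 without mutant 2. Igf2r, the receptor that clears IGF2 without signalling, was at -0.03 ± 0.08 (adjusted p = 0.901), and its sign turned without control 2 or mutant 2 (0.01 and 0.04). The insulin receptor gene Insr, the gene of this list with the smallest p, was at 0.12 (adjusted p = 0.322).

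Of 11 relatives, partners and proteases of the binding proteins, 2 fell, 0 rose and 9 did not pass (median 0.04). That is 18.2% called, against 7.66% of all genes. Htra3, a secreted serine protease with an IGF binding protein domain, had control values of 7.37, 7.52 and 7.42 and mutant values of 6.96, 6.74 and 7.08 (-0.51 ± 0.09, adjusted p = 0.0133). Pappa2, the protease that cuts IGFBP3 and IGFBP5, had control values of 7.36, 7.39 and 7.38 and mutant values of 6.87, 7.04 and 7.13 (-0.36 ± 0.07, adjusted p = 0.0233). Both had mutants wholly below the controls. The Htra3 call was lost without control 2 or control 3 (adjusted p 0.0654 and 0.0572), and that of Pappa2 without control 1, control 2 or control 3 (0.0814, 0.0982 and 0.0976). The largest difference of the list went the other way and did not pass: Htra1, a related serine protease, was at 0.64 ± 0.20 (adjusted p = 0.115). The stanniocalcin genes Stc2 (0.40, adjusted p = 0.0903) and Stc1 (0.37, adjusted p = 0.137), whose products inhibit PAPP-A, did not pass either. In these 3 genes, named after their values were seen, all mutants lay above all controls, as in 13.4% of all genes. The groups did not overlap, in either direction, in 5 of the 11 genes of the list, against 25.9% of all genes.

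The RNA binding protein gene Igf2bp1, whose product binds Igf2 mRNA and marks fetal tissue, rose, from control values of 10.05, 10.03 and 9.97 to mutant values of 10.58, 10.68 and 10.48 (0.56 ± 0.07, 1.48-fold, adjusted p = 0.00206). The gene has more than 1 feature, and the mean of its features differed by 0.72. Of this list of 3, Igf2bp3 was at 0.18 and did not pass, and the other gene was not analysed here. In the IRS, PI3K and AKT list, 1 of 25 genes rose, 1 fell and 23 did not pass (median 0.05). That is 8% called, close to the 7.66% of all genes. The gene that rose, Irs4, an adaptor of the IRS family with a narrow tissue range, had control values of 6.36, 6.01 and 6.51 and mutant values of 7.57, 8.11 and 7.73. It was 2.84-fold higher (1.51 ± 0.16, adjusted p = 0.00120), the largest difference in these lists, and passed with any array left out (adjusted p at most 0.00878). Its control mean of 6.29 was below that of the median gene (7.34), and its control SD of 0.25 ranked above 98.9% of all genes. The widely expressed adaptor genes Irs1 (-0.21) and Irs2 (0.20), named after their values were seen, did not pass (adjusted p = 0.171 and 0.144). Pik3r3, a regulatory subunit of PI3K, was at -0.32 ± 0.08 (adjusted p = 0.0475). Its call held with 1 of the 6 arrays left out, mutant 2, and was lost with each of the others (adjusted p from 0.0996 to 0.159). In the growth hormone list 0 of 5 genes passed in limma and 1 had an unadjusted p under 0.05, close to the 19.8% of all genes, with differences from -0.14 (Socs2, adjusted p = 0.212) to 0.06.

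**Figure D3:**
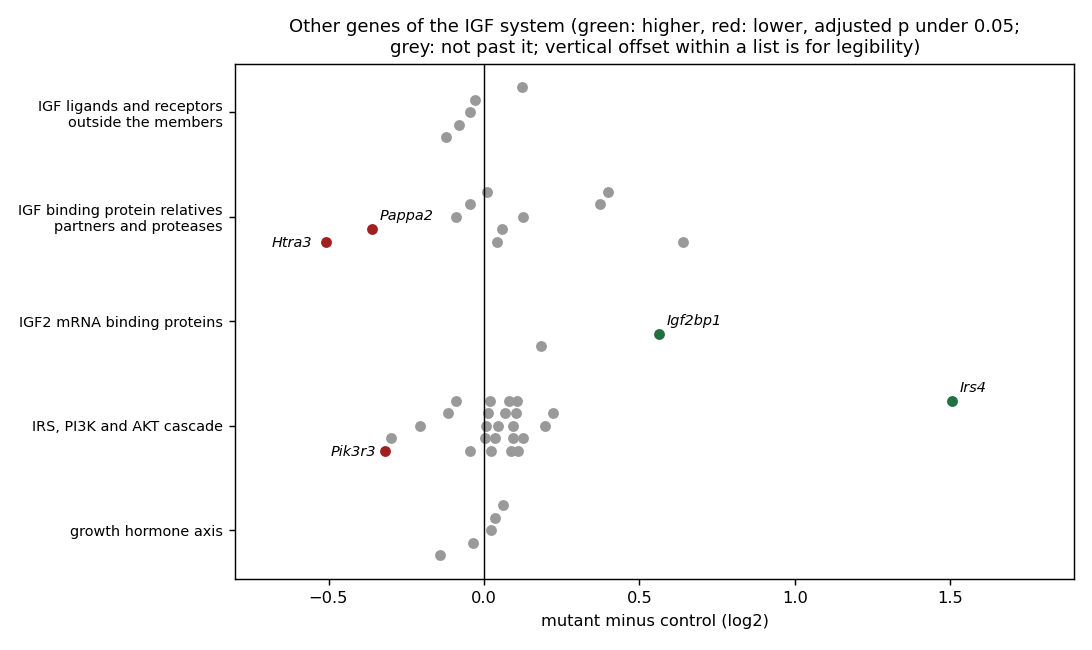
Difference, mutant minus control (horizontal axis, log2), of the 48 measured genes of 5 lists of the IGF system, 1 dot per gene. Irs4 (1.51) and Igf2bp1 (0.56) were higher, Htra3 (-0.51), Pappa2 (-0.36) and Pik3r3 (-0.32) were lower, and the other dots, in grey, did not pass.

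The profiles nearest to those of the 2 called members were found over all named genes by the root mean square distance between the 6 array values, each gene being centred on its control mean. Nearest to Igf1 were Negr1, a cell adhesion gene (distance 0.12 log2 units), Tmtc1 (0.15) and Mical2, an actin regulator (0.15). Negr1 had mutant values of 8.08, 7.11 and 7.40, and that its order among the mutants is that of Igf1 follows from how it was chosen. Nearest to Igfbp2 were Stx19, a syntaxin (0.03), Lsp1, an actin-binding protein of leukocytes (0.05), and the chemokine gene Cxcl14 (0.05). Stx19 read low, at 5.95, 5.93 and 6.05 in controls and 5.33, 5.23 and 5.21 in mutants. Its mutant values lay below those of Xist in the male lungs (5.51 and 5.77). The 3 Igfbp2 neighbours differed by -0.72, -0.68 and -0.68.

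Markers of several cell types differed between the groups as well, so each is set beside the members. Of 14 epithelial markers 11 fell and 0 rose, and the log2 of their summed signal was 14.23 to 14.28 in controls and 13.40 to 13.47 in mutants. Of 10 smooth muscle markers 6 fell and 1 rose (summed signal 13.56 to 13.60 and 12.62 to 12.83), and of 5 measured red cell markers 3 fell (10.67 to 11.34 and 10.10 to 10.19). Of 12 mesenchymal markers 5 rose and 0 fell (13.80 to 13.87 and 13.84 to 14.07), and of 8 macrophage markers 3 rose and 0 fell (10.83 to 11.04 and 11.01 to 11.29). The median difference was -0.86 in the epithelial, -1.05 in the smooth muscle and -0.43 in the red cell list. It was -0.08 in the endothelial and -0.03 in the liver list. These medians have the sign of Igf1 and Igfbp2. The other lists had the opposite sign, at 0.21 (mesenchymal), 0.35 (macrophage), 0.23 (heart muscle), 0.02 (mesothelial) and 0.01 (lung identity). Mutant 1 had a summed heart muscle signal above the controls, where mutants 2 and 3 lay below. It was the highest mutant in 6 of the 9 members, Igf1 and Igfbp3 among them, and in 33.8% of all genes. Of 9 measured liver markers, 1 read above the median gene in controls, 1 rose and 1 fell, and of 6 mesothelial markers 1 rose. Over all genes tested, 3.84% were higher and 3.83% lower. The part of these cell types in the differences of the members was not tested.

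**Figure D4:**
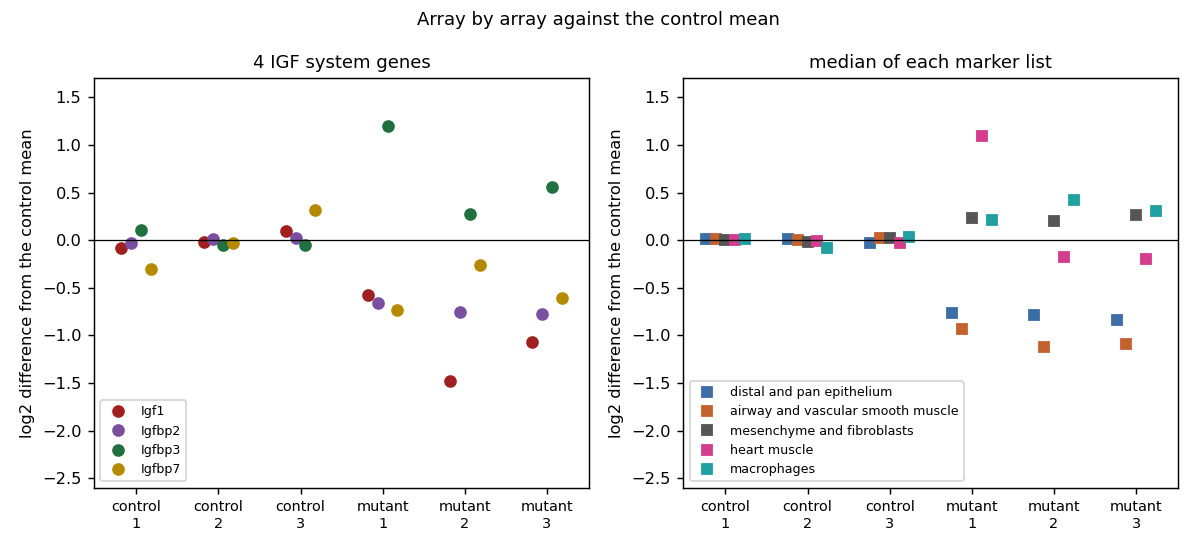
Log2 difference from the control mean (vertical axis) in each of the 6 arrays (horizontal axis), for 4 genes of the IGF system at the left and for the median of 5 marker lists at the right. Mutant 1 stands out in Igfbp3 at the left and in the heart muscle list (1.10) at the right. Igfbp2 at the left and both the epithelial and the mesenchymal list at the right are nearly level over the 3 mutants.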

How the data were processed

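RNA of 6 whole lungs was hybridised to 6 single-colour arrays. Per the labels' protocols, total RNA was column-purified, copied with an oligo(dT) primer, amplified and biotinylated. The deposited values are log2. The submitters' processing notes list oligo, RMA and limma, with no version or setting, so the authors' values are taken as RMA output, which compresses large and dim differences. The number of arrays, 3 per group, limits the precision.

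Of 35556 features, 21797 had 1 symbol. Where a gene had several, the feature of highest mean was kept, which left 19946 genes. They were compared in R 4.3.3 using the lmFit and eBayes functions of limma 3.58.1, in two-sided tests with genotype alone in the model (7.96 moderated degrees of freedom), tested on simulated data. The members and lists were chosen with earlier results of these data known. The named genes are the 9 members, Foxp1, Foxp2, Foxp4, Igf2, Igf2r, per IGF list up to 4 genes past the threshold or otherwise that with the smallest p, and the 3 nearest profiles of each called member, unnamed gene models left out; other named genes, the TATA, GC box and Igfbp1 letters and the ratios of neighbours were chosen after values were seen. Alternatives were other scalings, filters, feature rules, moderation, array weights, a replicate block, embryo sex as a covariate, and single arrays left out.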

Additional observations from a re-analysis of the deposited data

How the results depend on the processing

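With 1 array left out, the count of genes called ran from 774 to 1745 (main count 1528), that of members from 1 to 5 (2), that of IGF list genes from 2 to 8 (5) and that of the 3 targeted genes from 2 to 3 (2). Testing all features called 1 member, Igfbp2, and 2 list genes, with an adjusted p of 0.0673 for Igf1. Array weights called 4 members, adding Igfbp3 (adjusted p = 0.0203) and Igfbp7 (0.0455), and 10 list genes. Igfbp2 was lower and past the threshold in all 15 alternatives, and Igf1 was lower in all 15 and past it in 10. Without an array, Igf1r ran from -0.089 to 0.036 and Igf2r from -0.089 to 0.043, both positive without mutant 2 and Igf2r also without control 2 (0.0097); neither passed in any of the 15. Of the 19 genes followed through the alternatives (the members, the targeted genes, Igf2, Igf2r and the 5 called list genes), the other 17 kept their sign. Pik3r3 passed in 6 of 15.

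The deviations of same-numbered arrays of the 2 groups had correlations of -0.07, 0.05 and 0.15 over all genes. Those of differently numbered arrays ran from -0.15 to 0.08. The highest value, of control 3 with mutant 3, is also that of the 2 males. With 3 arrays per group these values cannot decide whether the numbers pair the samples. With the replicate block, 1137 genes, 3 members and 4 list genes were called, the added member being Igfbp3 (adjusted p = 0.0395). Igfbp1 and Igfbp6 were not in the fit without the dimmest genes. Dim features limit what a fall can show.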
